A study of Mus musculus with 20 samples.

Results

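The genes described here are 10 cytosolic chaperones and co-chaperones of the heat shock response in mouse heart: Hspa1a, Hspa1b, Hspa8, Hsph1, Dnajb1, Dnaja1, Hsp90aa1, Hsp90ab1, Hspb1 and Bag3. They were chosen by symbol, with earlier results of these data known. Each is a row of a table of FPKM whose gene identifier maps to that symbol. FPKM are fragments per kilobase of exon, scaled here by a size factor of each library. All 10 were found among the 25851 genes of the table. All 10 also passed the filter on low values, a mean of at least 0.5 FPKM over the 20 libraries, which left 13723 genes for testing.

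Heart RNA came from 20 male mice aged 14 to 16 weeks, with 5 mice in each of 4 groups. The groups were mice labelled as a cardiomyocyte PGC-1α knockout and trained for 6 weeks on a voluntary running wheel, wild-type mice trained in the same way, sedentary mice labelled as the knockout, and sedentary wild-type mice. The Cre driver, the deleted exons and the strain background are not given in the sources used here. Libraries were made from polyadenylated RNA of small heart pieces, and all carry the same batch label.

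Heat shock proteins bind unfolded or partly folded proteins. In the textbook cycle a J-domain protein delivers a client to HSP70 and stimulates its ATPase, a nucleotide exchange factor such as HSP110 or a BAG protein releases it, and HSP90 finishes the folding of many kinases and receptors. The transcription factor HSF1 is held inactive by chaperones and, when unfolded protein accumulates, binds inverted repeats of the pentamer nGAAn (heat shock elements) near the start of chaperone genes. In heart muscle, small heat shock proteins and BAG3 are known for protecting sarcomeric proteins under mechanical load.

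The libraries held 14.2 to 30.4 M reads, recovered from the FPKM values. Reads behind the values of Hspa1a and Hspa1b were fewest, 30 to 3799 and 29 to 5271 per library, and no other member had under 249 reads in any library. Ppargc1a, the gene of PGC-1α, was 18.7 to 26.9 FPKM in trained and 18.2 to 27.9 FPKM in sedentary labelled knockout hearts, against 10.4 to 21.9 FPKM in trained and 9.39 to 15.4 FPKM in sedentary wild-type hearts. The total over the gene was thus not lower in hearts labelled knockout, and the genotype is given below as labelled. Cardiomyocyte markers were present in every library, with a summed level of 17730 to 27133 FPKM over 10 genes. Some libraries stood apart. Myl7, an atrial myosin light chain, was above 1000 FPKM in replicates 2 and 5 of the trained labelled knockout group and in replicates 4 and 5 of the trained wild-type group, and was at most 97.1 FPKM elsewhere. Arntl, a clock gene that cycles over the day, exceeded 2 FPKM in sedentary labelled knockout replicate 1 and in sedentary wild-type replicates 1 to 4. In bulk tissue, fewer cells of a type and less RNA per cell cannot be told apart.

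Promoter windows, 250 bases before to 50 bases after a start, were found for 7 of the 10 genes (all but Hspa8, Hsp90aa1 and Hsp90ab1) in RefSeq on GRCm38.p6. The inverted pair GAANNTTC was present in 6 of these 7 genes, against 7.51% of 14996 genes of the table with a window. The other orientation, TTCNNGAA, was in 1 of 7, against 8.76%, and 3 units in a row, meaning a pair extended by NN and a further GAA or TTC, were in 1 of 7 (Hsph1), against 0.587%. Each pair is its own reverse complement, so 1 search covers both strands, and the 3-unit motif contains and overlaps the pairs. The windows of Hspa1a and Hspa1b had the same base at 247 of the 250 positions before the start, so their matches are not independent. No match was found in the window of Dnajb1. The stretches around the matches are shown because the members varied together across libraries, with the matched bases in capitals and positions counted from the start.
Hspa1a, chr17:34972233-34972280, minus strand, -124 to -77: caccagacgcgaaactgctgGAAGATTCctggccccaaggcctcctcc
Hspa1b, chr17:34959315-34959362, minus strand, -124 to -77: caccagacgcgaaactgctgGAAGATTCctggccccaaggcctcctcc
Dnaja1, chr4:40722324-40722371, plus strand, -144 to -97: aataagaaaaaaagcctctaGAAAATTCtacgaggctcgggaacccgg
Hspb1, chr5:135887782-135887849, plus strand, -137 to -70: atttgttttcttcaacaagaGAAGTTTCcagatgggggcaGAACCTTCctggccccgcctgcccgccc
Hsph1, chr5:149636342-149636389, minus strand, -53 to -6 from its most upstream start: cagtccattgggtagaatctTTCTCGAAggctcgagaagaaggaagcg
Hsph1, chr5:149636287-149636308, minus strand, 29 to 50 after that start: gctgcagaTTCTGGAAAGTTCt
Bag3, chr7:128523614-128523632, plus strand, 32 to 50 after the start: ggatgggaccaGAAGTTTC
A match to these letters is a description of the window and not a measured binding site.

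The 10 transcripts fell into abundant and scarce members on the per-length FPKM scale. Means over the 20 libraries were 552 FPKM for Hsp90ab1, 417 FPKM for Hspb1, 357 FPKM for Hspa8 and 123 FPKM for Bag3. Hsp90aa1 followed at 53.3 FPKM, and the other five lay between 12.1 FPKM for Dnajb1 and 20.7 FPKM for Hspa1b. Neighbours in this order were often not separated library by library. Hspb1 exceeded Hspa8 in 14 of 20 libraries, Hspa1a exceeded Hsph1 in 6, and Hsph1 exceeded Dnaja1 in 11. The most abundant member, Hsp90ab1, supplied 35.0% of the summed FPKM of the 10 genes and Hspa1a 1.02%.

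**Figure D1:**
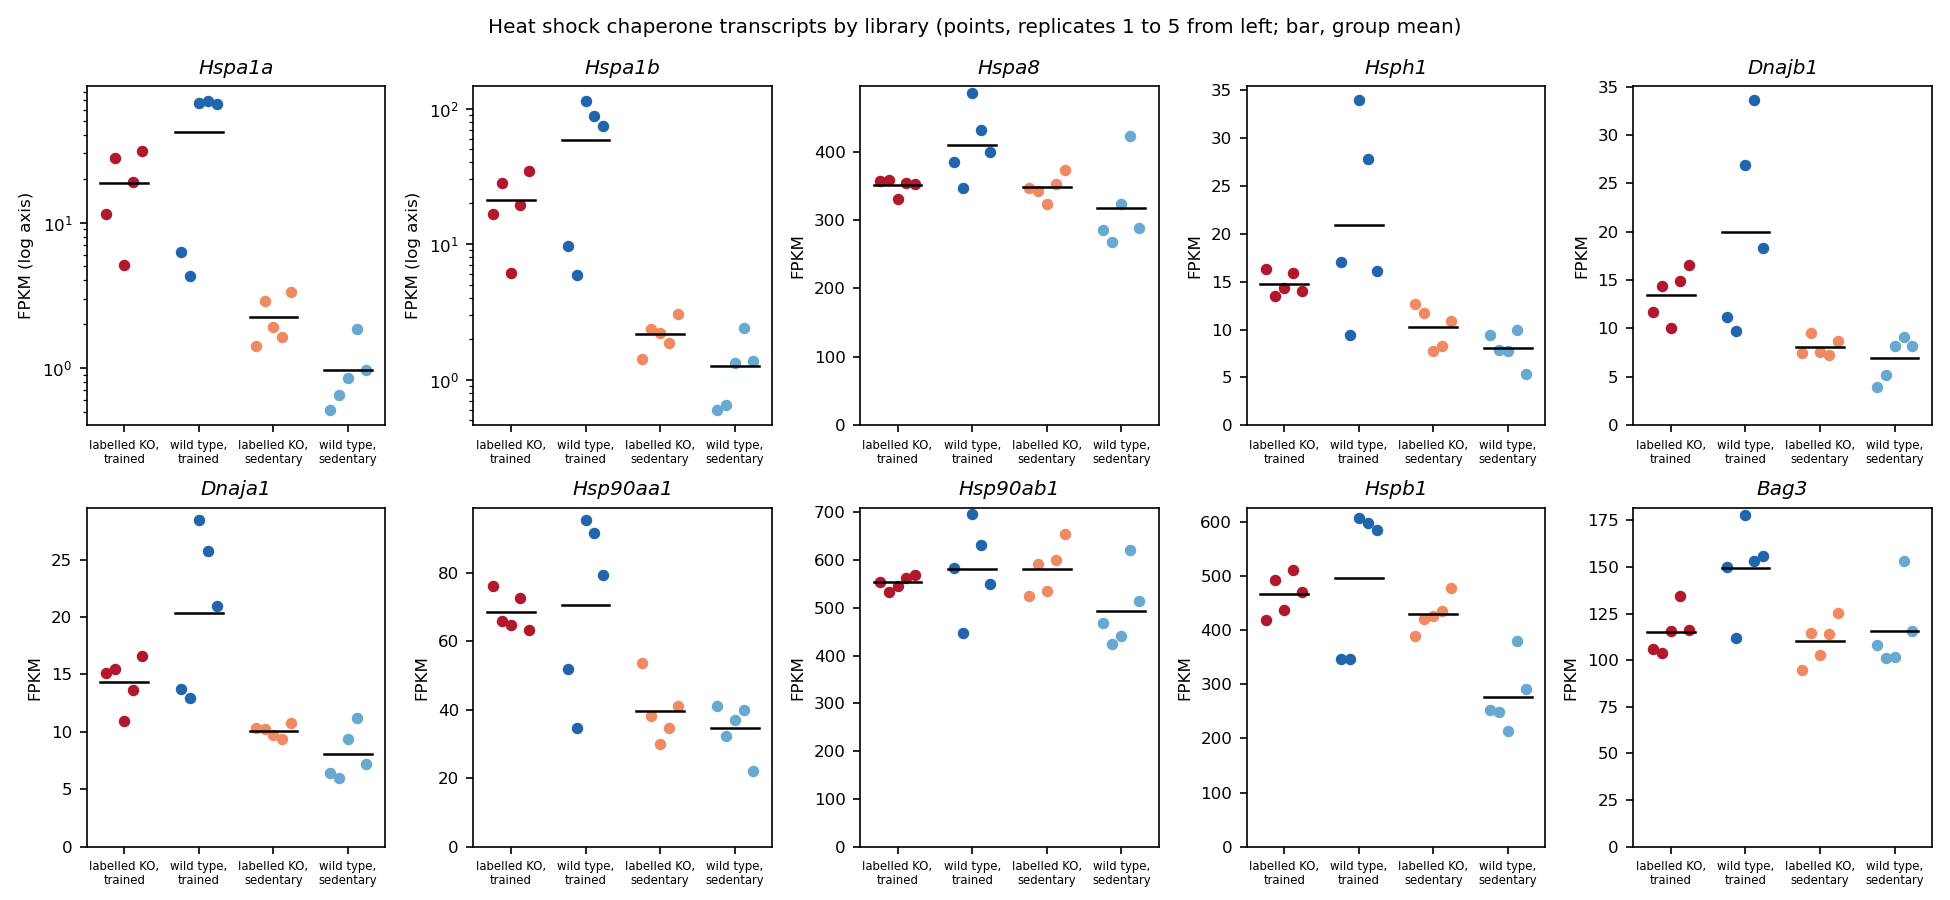
FPKM of each of the 10 chaperone genes in all 20 libraries, in groups of 5 (points, replicates 1 to 5 from left to right; bars, group means; log axis for Hspa1a and Hspa1b only). Replicates 3, 4 and 5 of trained wild-type hearts held 66.8, 68.4 and 65.6 FPKM of Hspa1a, while replicates 1 and 2 held 6.33 and 4.32 FPKM.

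Trained hearts of both genotypes had more of the inducible HSP70 transcripts than sedentary hearts. In wild-type mice 8 of the 10 genes passed the test as higher after training and none as lower (limma over all genes tested, Benjamini-Hochberg adjusted p below 0.05), where 2.94% of all genes were called higher and 2.53% lower. The exceptions were Hsp90ab1 and Bag3. In labelled knockout mice 3 of 10 passed as higher, Hspa1a, Hspa1b and Hsp90aa1, where 12.1% of all genes were called higher. The median log2 fold change of the 10 genes was 1.08 in wild-type and 0.50 in labelled knockout mice, where the median of all genes was -0.01 and -0.02. In sedentary mice 1 of 10, Hspb1, was higher in labelled knockout hearts, where 6.96% of all genes were called higher and 6.32% lower. In trained mice 1 of 10, Bag3, was lower in labelled knockout hearts, where 12.5% of all genes were called higher and 15.4% lower. A count of 1 of 10 is near these shares of all genes. The other nine differences between genotypes lay between -0.06 and 0.91 (log2) in sedentary mice, with limma adjusted p from 0.144 to 0.781. In trained mice they lay between -0.88 and 0.05, with limma adjusted p from 0.106 to 0.902.

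The calls in wild-type mice depended on which libraries were fitted. Without the 4 libraries with Myl7 above 1000 FPKM, 1 of 10 members was called higher after training in wild-type mice (8 at an unadjusted p below 0.05), and over all genes 33 were called higher and 6 lower. Without the 5 libraries with Arntl above 2 FPKM, which leaves 1 sedentary wild-type library that is assumed to vary like the other groups, limma called none (8 at an unadjusted p below 0.05) and passed 4 genes in all, 1 higher and 3 lower. The members' median log2 fold change was 0.89 and 1.22 in these fits. In labelled knockout mice the same 3 members were called in both fits. With no library left out but only the wild-type groups fitted, 2 of 10 members were called, Hspa1a and Hspa1b. Over all genes that fit called 52 higher and 9 lower. The part of atrial tissue or of time of day in these values was not tested.

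Hspa1a and Hspa1b encode the stress-inducible HSP70, which is scarce in unstressed tissue. Hspa1a (ENSMUSG00000091971, protein coding, chr17:34969190-34972156, minus strand, GRCm38) was 11.5, 27.9, 5.12, 19.1 and 30.9 FPKM in trained labelled knockout hearts and 6.33, 4.32, 66.8, 68.4 and 65.6 FPKM in trained wild-type hearts, replicates 1 to 5 in order. It was 1.42, 2.90, 1.92, 1.63 and 3.34 FPKM in sedentary labelled knockout hearts and 0.515, 0.653, 0.846, 1.86 and 0.971 FPKM in sedentary wild-type hearts. Every trained library thus exceeded every sedentary library of its genotype, and the trained wild-type libraries split into 3 high and 2 low ones. The log2 fold change with training was 2.63 ± 0.67 in labelled knockout (SE, limma adjusted p = 0.00577) and 4.16 ± 0.67 in wild-type mice (limma adjusted p = 0.00371). The ratio of group means was 8.43 in labelled knockout and 43.6 in wild-type mice. Without the 4 libraries with high Myl7 the wild-type log2 fold change was 3.22 with a limma adjusted p of 0.0503.

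Hspa1b (ENSMUSG00000090877, chr17:34956436-34959238, minus strand, GRCm38) lies next to Hspa1a and encodes a nearly identical protein. It was 16.8, 28.4, 6.08, 19.4 and 34.3 FPKM in trained labelled knockout hearts, against 1.42, 2.36, 2.19, 1.87 and 3.05 FPKM in sedentary labelled knockout hearts. In wild-type mice, trained hearts had 9.60, 5.92, 113, 88.0 and 74.6 FPKM, against 0.600, 0.646, 1.33, 2.40 and 1.37 FPKM in sedentary wild-type hearts. The groups again did not overlap in either genotype, and the same 3 trained wild-type libraries were high. The log2 fold change with training was 2.83 ± 0.65 in labelled knockout (limma adjusted p = 0.00299) and 4.38 ± 0.65 in wild-type mice (limma adjusted p = 0.00279), and without the high-Myl7 libraries the wild-type value was 3.55 with a limma adjusted p of 0.0397.

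Reads of the pair can be split between them by the counting, since 58.8% of the 50-base stretches of the Hspa1a transcript also occur in the Hspa1b transcript. Of the same stretches 7.95% occur in Hspa1l, and none occur in Hspa8 or Hspa2. The summed FPKM of Hspa1a and Hspa1b depends little on the split between the pair, whose exon lengths are 2967 and 2803 bases. How reads that match both copies were counted is not given in the sources used here. The sum was 28.3, 56.3, 11.2, 38.5 and 65.3 FPKM in trained labelled knockout hearts, 15.9, 10.2, 180, 156 and 140 FPKM in trained wild-type hearts, 2.84, 5.26, 4.11, 3.51 and 6.39 FPKM in sedentary labelled knockout hearts, and 1.11, 1.299, 2.18, 4.26 and 2.34 FPKM in sedentary wild-type hearts. With training it was higher by 2.86 (log2) in labelled knockout and by 4.53 in wild-type mice, in 25 of 25 pairs of libraries in each case (two-sided exact permutation p = 0.00794, which is the lowest p possible with 5 against 5 libraries, adjusted over 4 comparisons p = 0.0159). Between labelled knockout and wild-type hearts it differed by 0.91 (log2) in sedentary mice (exact permutation p = 0.0397, adjusted p = 0.0529) and by -0.77 in trained mice (exact permutation p = 0.437), neither past the threshold. Hspa1b supplied 44.9 to 62.8% of the sum, with a median of 53.6%, so the ratio of the pair varied little while their sum ranged from 1.11 to 180 FPKM. In the trained labelled knockout group the 2 highest sums, 65.3 and 56.3 FPKM, were in the high-Myl7 replicates 5 and 2. In the trained wild-type group the highest sum, 180 FPKM, was in replicate 3, whose Myl7 was 0.508 FPKM. The high-Myl7 replicates 4 and 5 followed at 156 and 140 FPKM. Replicates 1 and 2, with Myl7 at 0.0846 and 2.88 FPKM, held 15.9 and 10.2 FPKM.

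Hspa8 encodes HSC70, the constitutive cytosolic HSP70 (ENSMUSG00000015656, chr9:40800984-40810087, plus strand, GRCm38). It was 357, 359, 331, 355 and 353 FPKM in trained labelled knockout hearts, against 347, 343, 324, 354 and 374 FPKM in sedentary labelled knockout hearts, and the groups overlapped. Trained wild-type hearts had 385, 347, 485, 432 and 400 FPKM, against 285, 268, 324, 423 and 289 FPKM in sedentary wild-type hearts, with sedentary replicate 4 above 3 of the 5 trained libraries. The log2 fold change with training was 0.01 ± 0.10 in labelled knockout (95% interval -0.21 to 0.23, limma adjusted p = 0.950) and 0.38 ± 0.10 in wild-type mice (limma adjusted p = 0.0427). The wild-type call was lost in 7 of 10 fits that left out a library of the comparison, with limma adjusted p up to 0.115. The labelled knockout value was negative, -0.01, without sedentary replicate 3.

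Hsph1 encodes HSP110, a relative of HSP70 that acts as its nucleotide exchange factor (ENSMUSG00000029657, chr5:149614287-149636376, minus strand, GRCm38). It was 16.4, 13.5, 14.3, 15.9 and 14.0 FPKM in trained labelled knockout hearts, against 12.7, 11.7, 7.77, 8.26 and 10.9 FPKM in sedentary labelled knockout hearts. In wild-type mice, trained hearts had 17.1, 9.42, 34.0, 27.8 and 16.1 FPKM, against 9.43, 7.89, 7.77, 9.99 and 5.40 FPKM in sedentary wild-type hearts. The labelled knockout groups did not overlap, whereas trained wild-type replicate 2 lay within the sedentary wild-type range. The test nevertheless passed in wild-type mice (log2 fold change 1.21 ± 0.25, limma adjusted p = 0.0131) and not in labelled knockout mice (0.53 ± 0.25, limma adjusted p = 0.119), since a single estimate of the spread per gene was shared by the 4 groups.

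Dnajb1 encodes HSP40, the J-domain partner of inducible HSP70 (ENSMUSG00000005483, chr8:83608193-83612653, plus strand, GRCm38). It was 11.7, 14.4, 10.05, 14.9 and 16.5 FPKM in trained labelled knockout hearts, against 7.42, 9.56, 7.60, 7.28 and 8.76 FPKM in sedentary labelled knockout hearts. Trained wild-type hearts had 11.1, 9.78, 26.9, 33.6 and 18.3 FPKM, against 3.96, 5.17, 8.14, 9.10 and 8.21 FPKM in sedentary wild-type hearts. The groups did not overlap in either genotype. The log2 fold change with training was 0.69 ± 0.28 in labelled knockout (limma adjusted p = 0.0720, not past the threshold) and 1.37 ± 0.28 in wild-type mice (limma adjusted p = 0.0126).

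Dnaja1 encodes another J-domain protein, which works with HSC70 (ENSMUSG00000028410, chr4:40722150-40737149, plus strand, GRCm38). It was 15.1, 15.4, 10.9, 13.6 and 16.6 FPKM in trained labelled knockout hearts, against 10.3, 10.2, 9.73, 9.36 and 10.8 FPKM in sedentary labelled knockout hearts. In wild-type mice, trained hearts had 13.7, 12.98, 28.4, 25.7 and 20.96 FPKM, against 6.43, 6.01, 9.37, 11.2 and 7.24 FPKM in sedentary wild-type hearts. Trained and sedentary libraries did not overlap in either genotype, although in labelled knockout hearts trained replicate 3 lay just above sedentary replicate 5. Its log2 fold change was 0.48 ± 0.20 in labelled knockout (limma adjusted p = 0.0756) and 1.25 ± 0.20 in wild-type mice (limma adjusted p = 0.00324), and the wild-type call held with each library of the comparison left out. It was lost with only the wild-type groups fitted (limma adjusted p = 0.0501).

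Hsp90aa1 and Hsp90ab1 encode the inducible and the constitutive cytosolic HSP90, and their transcripts share no 50-base stretch. Hsp90aa1 (ENSMUSG00000021270, chr12:110690605-110702728, minus strand, GRCm38) was 76.2, 65.9, 64.8, 72.6 and 63.4 FPKM in trained labelled knockout hearts, against 53.5, 38.3, 30.1, 34.7 and 41.2 FPKM in sedentary labelled knockout hearts. Trained wild-type hearts had 51.9, 34.8, 95.4, 91.6 and 79.4 FPKM, against 41.1, 32.2, 37.0, 40.1 and 22.2 FPKM in sedentary wild-type hearts. The labelled knockout groups did not overlap, and trained wild-type replicate 2 lay within the sedentary range. Its log2 fold change was 0.81 ± 0.23 in labelled knockout (limma adjusted p = 0.0121) and 0.96 ± 0.23 in wild-type mice (limma adjusted p = 0.0266). It was the member whose training changes were nearest in the 2 genotypes, with a difference of -0.15 ± 0.33 (95% interval -0.83 to 0.53). The wild-type call was lost in 4 of 10 fits that left out a library, with limma adjusted p up to 0.0877.

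Hsp90ab1 (ENSMUSG00000023944, chr17:45567775-45573271, minus strand, GRCm38) stayed within 533 to 568 FPKM in trained labelled knockout hearts, 448 to 696 FPKM in trained wild-type hearts, 525 to 654 FPKM in sedentary labelled knockout hearts and 424 to 621 FPKM in sedentary wild-type hearts. No pair of groups was separated. Its log2 fold change with training was -0.07 ± 0.11 in labelled knockout (limma adjusted p = 0.687) and 0.24 ± 0.11 in wild-type mice (limma adjusted p = 0.177). The labelled knockout value was 0.20 when each library was rescaled to a common FPKM sum.

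Hspb1 encodes the small heat shock protein HSP27, which binds unfolding proteins without ATP and is abundant in muscle (ENSMUSG00000004951, chr5:135887919-135889563, plus strand, GRCm38). It was 388, 420, 425, 435 and 478 FPKM in sedentary labelled knockout hearts, against 252.2, 248, 213, 380 and 292 FPKM in sedentary wild-type hearts. All 5 labelled knockout libraries exceeded all 5 wild-type libraries, which held for 1 of 10 members and for 5.14% of all genes, with 5.29% the other way. Hspb1 was higher by 0.66 ± 0.17 (log2, limma adjusted p = 0.0129) and remained so with each library left out (limma adjusted p up to 0.0453). It did not pass without the 5 libraries with high Arntl (log2 fold change 0.59, limma adjusted p = 0.564). Trained labelled knockout hearts had 419, 492, 437, 510 and 470 FPKM, against the sedentary labelled knockout values above, overlapping them, with a log2 fold change of 0.12 ± 0.17 (limma adjusted p = 0.645). In wild-type mice, trained hearts had 347, 347, 606, 597 and 584 FPKM, against the sedentary wild-type values above, a log2 fold change of 0.82 ± 0.17 (limma adjusted p = 0.0126). The 3 high trained wild-type libraries exceeded every library of the other groups, and the 2 low ones lay below sedentary wild-type replicate 4.

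Bag3 encodes a co-chaperone that links HSP70 to small heat shock proteins and to autophagy and is needed for sarcomere upkeep (ENSMUSG00000030847, chr7:128523616-128546981, plus strand, GRCm38). It was 106, 104, 116, 135 and 116 FPKM in trained labelled knockout hearts, against 150, 112, 178, 153 and 156 FPKM in trained wild-type hearts. Only trained wild-type replicate 2 lay within the labelled knockout range. The difference was -0.37 ± 0.12 on the log2 scale (limma adjusted p = 0.0331), but 7 of 10 fits that left out a library lost the call, with limma adjusted p up to 0.0979, and so did a common FPKM sum, where the value was -0.08. Sedentary hearts had 94.7, 115, 103, 114 and 125 FPKM with the labelled knockout and 108, 101, 102, 153 and 115 FPKM with the wild type. Training changes were 0.06 ± 0.12 in labelled knockout (limma adjusted p = 0.745) and 0.37 ± 0.12 in wild-type mice (limma adjusted p = 0.0782).

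**Figure D2:**
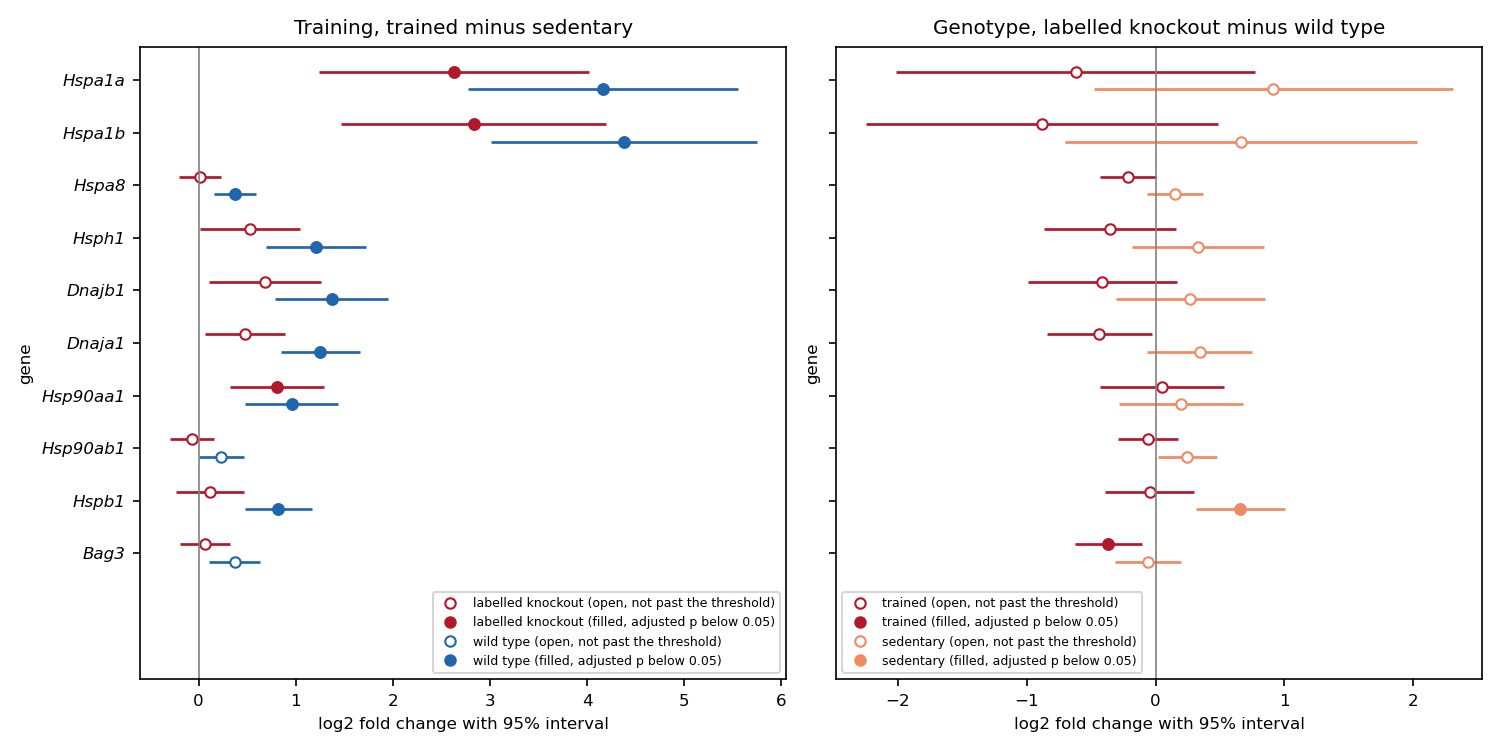
Log2 fold changes with 95% intervals for training (left, trained minus sedentary, in each genotype) and genotype (right, labelled knockout minus wild type, in trained and sedentary mice), filled where the limma adjusted p was below 0.05. The wild-type point lies to the right of the labelled knockout point for all 10 genes on the left, from 0.81 in labelled knockout and 0.96 in wild-type mice for Hsp90aa1 to 2.83 in labelled knockout and 4.38 in wild-type mice for Hspa1b.

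The training change was smaller in labelled knockout than in wild-type mice for all 10 genes, except that the difference for Hsp90aa1 was 0.04 with a common FPKM sum and 0.15 without the high-Myl7 libraries. The test of that difference passed for none. By limma, 3 of 10 genes were lower at an unadjusted p below 0.05 (Hspa8, Dnaja1 and Hspb1), and the smallest adjusted p was 0.0722 for Hspb1 (difference -0.70 ± 0.23). Over all genes 2.32% were called higher and 5.00% lower in this comparison. Limma voom on recovered reads also called 0 of 10. When libraries were weighted by how well they fitted their group (array weights), 9 of 10 passed as lower, all but Hsp90aa1, with limma adjusted p from 0.00149 for Hspb1 to 0.0498 for Hsph1. That fit called more genes throughout, 2380 higher and 2661 lower of 13723, against 319 higher and 686 lower without weights. The median difference of the 10 genes was -0.68, beside -0.01 for all genes.

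Groups that did not overlap gave another view of the same data, without a fitted spread. In trained against sedentary labelled knockout hearts all 5 trained libraries exceeded all 5 sedentary ones for 6 of 10 genes (Hspa1a, Hspa1b, Dnajb1, Dnaja1, Hsph1 and Hsp90aa1), against 8.96% of all genes, with 13.7% the other way. In trained against sedentary wild-type hearts this held for 4 of 10 (Hspa1a, Hspa1b, Dnajb1 and Dnaja1), against 2.24% of all genes, with 1.68% the other way. No member separated trained labelled knockout from trained wild-type hearts, where 8.07% of all genes did so upward and 11.1% downward.

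Spread between mice of a group was the other feature of these genes. In trained wild-type hearts the median SD of the 10 genes was 0.56 on the log2 scale, beside 0.19 for all genes, and 9 of the 10 lay above that median. In sedentary wild-type hearts it was 0.34 beside 0.19, with all 10 above. In labelled knockout hearts the members' median SD was 0.13 beside 0.14 when trained, with 5 of the 10 above, and 0.16 beside 0.16 when sedentary, with 4 above. The SDs of Hspa1a and Hspa1b in trained labelled knockout hearts were 1.02 and 0.93. In the wild-type groups the order of libraries was shared by most members. Trained wild-type replicate 3 ranked among the top 3 of all 20 libraries for 10 of 10 genes, replicate 4 for 9 and replicate 5 for 7, while replicate 2 was the lowest of its group for all 10. Sedentary wild-type replicate 4 was the highest of its group for 9 of 10. The order was less shared in trained labelled knockout hearts, where replicate 5 was highest for 5 of 10 and replicate 3 lowest for 5. In sedentary labelled knockout hearts replicate 5 was highest for 7 of 10, while replicate 1 was highest for 2 and lowest for 5. After group means were removed, all 45 pairs of members had positive correlations over the 20 libraries, from 0.43 for Hsp90aa1 with Bag3 to 0.99 for Hspa1a with Hspa1b, with a median of 0.65. These libraries share depth and scaling, and groups with a larger SD weigh more, so the correlations are a description.

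**Figure D3:**
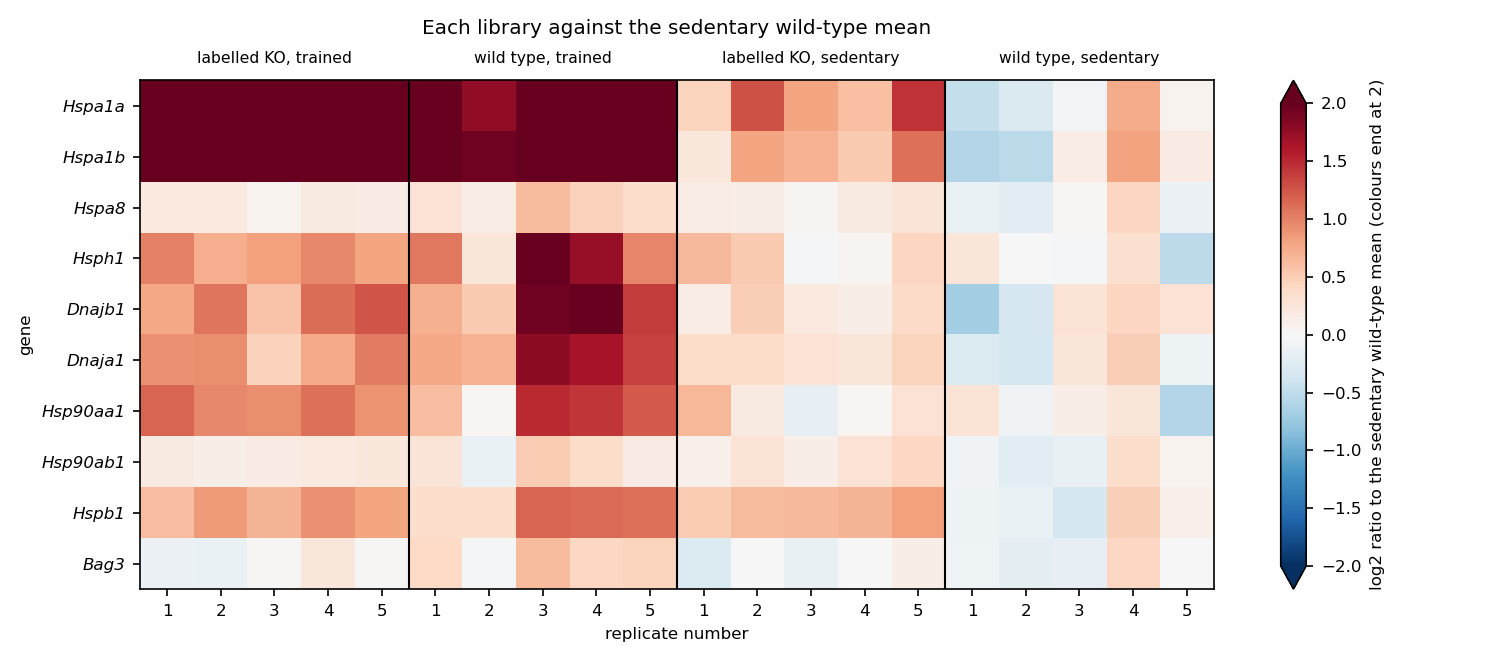
Log2 ratio of each library (columns, replicates 1 to 5 of each group) to the sedentary wild-type mean for the 10 genes (rows), in FPKM with 0.5 added (colours end at 2). Replicates 3, 4 and 5 of trained wild-type hearts are the darkest columns, and replicate 2 of that group is the palest of the trained ones.

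The genes whose variation within groups was most like a member's were found among 11744 genes with a mean of at least 1 FPKM, over the 20 libraries. For Hsp90ab1 they were Stip1 (Pearson r 0.88), the organiser that hands clients from HSP70 to HSP90, followed by Cops8, Mrfap1, Kdm4a and Fxr2. For Dnajb1 they were Cct7 (0.80), a subunit of the chaperonin TRiC, followed by Gmds, Cdpf1, Dedd2 and Amotl2. For Hspb1 they were P2rx5 (0.86), Alg1, Nptxr, Dad1 and Cct7 (0.82).

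Fewer genes of the other chaperone lists passed the test for training in wild-type mice, where 2.94% of all genes rose and 2.53% fell. Of the HSP90 co-chaperones, 3 of 18 rose with training in wild-type mice: Ahsa1, the activator of the HSP90 ATPase (log2 fold change 0.30 ± 0.08, limma adjusted p = 0.0355), Ptges3, which encodes p23 (0.39 ± 0.11), and the immunophilin Fkbp5 (1.46 ± 0.42). None of these was called when libraries were rescaled to a common FPKM sum, without the high-Myl7 libraries or without the high-Arntl libraries. In labelled knockout mice none rose and 6 of 18 fell, led by the immunophilin Fkbp4 (-0.67 ± 0.09, limma adjusted p = 3.17e-05), the phosphatase Ppp5c (-0.35 ± 0.07), the kinase loader Cdc37 (-0.31 ± 0.07) and Rpap3 (-0.36 ± 0.08), where 16.3% of all genes fell. With a common FPKM sum the same list had 2 members higher and 1 lower, where 4085 of 13774 genes were higher and 631 lower. The list's difference between genotypes passed for 4 of 18, all lower (Ahsa1, Fkbp4, Ppp5c and Cdc37), and for none with a common FPKM sum. Over all genes 5% were lower in this difference, and 58 of 13774 genes with a common FPKM sum.

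Scaling decided such counts in trained labelled knockout hearts. Their summed FPKM was 331876 to 398369 per library, against 410641 to 531587 in the other groups. A common sum moved the median log2 fold change of all genes for training in labelled knockout mice to 0.21, beside -0.02 as deposited, and turned 1656 genes higher and 2236 lower into 4085 higher and 631 lower. For genotype in trained mice the median moved to 0.24, beside -0.01, and 1713 higher and 2112 lower became 5149 and 787. For training in wild-type mice the median was 0.05, beside -0.01, with 186 higher and 54 lower, beside 403 and 347. For genotype in sedentary mice 1052 were higher and 391 lower, beside 955 and 867, and for the interaction 351 and 58, beside 319 and 686. Against these medians the 10 members stood at 0.77 for training in labelled knockout mice, with 6 called, and at 1.16 in wild-type mice, with 7 called.

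Among other partners of HSP70, Bag1, a nucleotide exchange factor, and Stub1, the ubiquitin ligase CHIP, fell with training in labelled knockout mice (Bag1 -0.48 ± 0.06, limma adjusted p = 1.63e-05; Stub1 -0.40 ± 0.09). They were 2 of 8 genes in their list, none of which was called in wild-type mice. The difference between genotypes passed for both (Bag1 -0.42 ± 0.08 and Stub1 -0.48 ± 0.12). Over all genes 12.1% rose and 16.3% fell with training in labelled knockout mice, and 5% were lower in that difference. With a common FPKM sum none of the 8 was called in either test. Of 8 other HSP70 and HSP110 genes, Hspa2 rose with training in labelled knockout (0.51 ± 0.17, limma adjusted p = 0.0282) and in wild-type mice (0.71 ± 0.17, limma adjusted p = 0.0242). Of 14 other J-domain genes, none passed in wild-type mice, and Dnajc14 rose while Dnajc7, Dnaja2 and Dnajc9 fell in labelled knockout mice. With a common FPKM sum that list had 4 higher and 0 lower, where 4085 of 13774 genes were higher and 631 lower. Of 7 other small heat shock genes, only Hspb3 passed with training, falling in labelled knockout mice (-0.51 ± 0.15, limma adjusted p = 0.0161) but not with a common FPKM sum. Falls in 3 of 14 J-domain genes and 1 of 7 small heat shock genes are near the share of all genes that fell.

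The heat shock transcription factors had 4 measured genes. Hsf2 fell with training in wild-type mice (-0.33 ± 0.08, limma adjusted p = 0.0253), Hsbp1, a negative regulator of HSF1, fell in labelled knockout mice (-0.27 ± 0.07, limma adjusted p = 0.00459), and neither call held with a common FPKM sum. Hsf4 was higher in labelled knockout than in wild-type sedentary hearts (0.58 ± 0.13, limma adjusted p = 0.00796). Hsf1 passed in no comparison.

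The lists for other compartments and the proteasome are read against all genes, of which 12.1% rose and 16.3% fell with training in labelled knockout mice, and 2.94% rose and 2.53% fell in wild-type mice. With a common FPKM sum 4085 of 13774 genes rose and 631 fell in labelled knockout mice, and 186 rose and 54 fell in wild-type mice. In labelled knockout mice 8 of 10 mitochondrial chaperone and protease genes fell with training (Trap1 -0.45 ± 0.07, Clpp -0.58 ± 0.10, Grpel1 -0.54 ± 0.09, Hspd1 -0.41 ± 0.09), and 2 of 10 with a common FPKM sum. In wild-type mice 2 of 10 fell, Grpel2 (-0.41 ± 0.09) and Clpx (-0.52 ± 0.13), and none with a common FPKM sum. Of 16 ubiquitin and proteasome genes 10 fell in labelled knockout mice, led by the subunits Psmb7 (-0.44 ± 0.07) and Psmb1 (-0.32 ± 0.06), and 0 with a common FPKM sum. Of 14 TRiC and prefoldin genes 6 fell, led by Pfdn1 (-0.39 ± 0.07) and Pfdn2 (-0.40 ± 0.08), and 0 with a common FPKM sum. Of 15 chaperones of the endoplasmic reticulum 3 rose, Serpinh1 (0.45 ± 0.12), which is the collagen chaperone, Dnajc3 (0.44 ± 0.12) and Pdia3 (0.25 ± 0.08), and 5 with a common FPKM sum. In wild-type mice 1 proteasome gene fell with training (Psmb7, -0.27 ± 0.07, not with a common FPKM sum), and no gene of the TRiC or endoplasmic reticulum lists passed. Of 8 genes of autophagy with Bag3, the autophagosome protein Map1lc3b fell (-0.32 ± 0.06, not with a common FPKM sum) and filamin C, Flnc, a Bag3 client, rose (0.58 ± 0.18) in labelled knockout mice, and none passed in wild-type mice.

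Between genotypes, Fkbp4 was lower in labelled knockout than in wild-type hearts in trained (-0.90 ± 0.09, limma adjusted p = 5.24e-07) and in sedentary mice (-0.41 ± 0.09, limma adjusted p = 0.00557). Unc45b, the myosin chaperone of striated muscle, was lower in trained mice (-0.47 ± 0.08, limma adjusted p = 0.000235). The HSP90 co-chaperones had 0 higher and 5 lower of 18 in trained mice, where 12.5% of all genes were higher and 15.4% lower. With a common FPKM sum they had 3 higher and 1 lower, where 5149 of 13774 genes were higher and 787 lower. Dnajb6, a J-domain protein that suppresses aggregation, was higher in labelled knockout hearts in trained (0.49 ± 0.10, limma adjusted p = 0.0013) and in sedentary mice (0.40 ± 0.10, limma adjusted p = 0.0145).

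**Figure D4:**
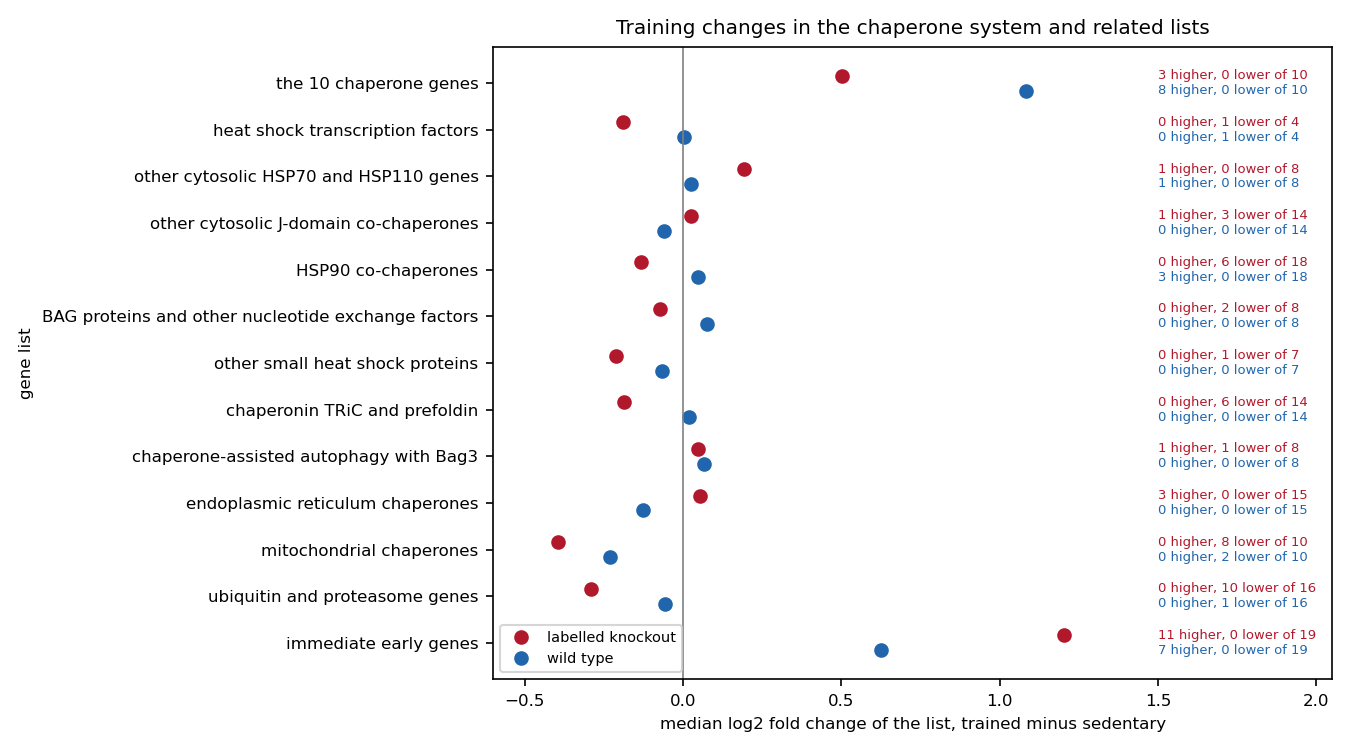
Median log2 fold change with training of the 10 chaperone genes and of 12 related lists in labelled knockout and wild-type mice (points), with the number of genes called higher and lower of those tested. The 10 genes stand at 0.50 and 1.08, and the 11 other chaperone and proteostasis lists lie between -0.40 and 0.19.

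Markers of other cell types moved beside these changes. With training in labelled knockout mice, where 12.1% of all genes rose and 16.3% fell, 7 of 10 cardiomyocyte markers fell. Their summed level was 17730 to 19907 FPKM trained and 22191 to 25935 FPKM sedentary. In the same comparison 6 of 7 fibroblast markers rose (414 to 639 FPKM summed when trained, 222 to 258 FPKM sedentary), as did 7 of 7 macrophage markers (349 to 635 FPKM trained, 259 to 296 FPKM sedentary). With a common FPKM sum 6 cardiomyocyte markers fell and all 7 of each of the other lists rose. Over all genes 4085 of 13774 rose and 631 fell in that fit. In wild-type mice limma called no gene of these 3 lists with training (at an unadjusted p below 0.05, 2 cardiomyocyte markers lower and 1 fibroblast marker higher). The summed atrial markers were 1492 to 5651 FPKM in trained and 274 to 913 FPKM in sedentary labelled knockout hearts, and 21.1 to 9365 FPKM in trained and 41.4 to 253 FPKM in sedentary wild-type hearts. Nppa, which is also in the cardiomyocyte list, had the highest mean of the 7 atrial markers, 1047 FPKM over the 20 libraries. Trained labelled knockout replicates 1, 3 and 4 had atrial sums of 1492, 1579 and 2724 FPKM, while their Myl7 was 1.76, 1.27 and 1.66 FPKM. None of the 7 atrial markers passed the test for training in either genotype by limma (1 at an unadjusted p below 0.05 in labelled knockout mice), and 9 libraries listed Sln, Bmp10 or Myl7 at 0.

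Other marker lists held genes that rose with training in wild-type mice, where 2.94% of all genes rose. Of 6 epicardial and mesothelial markers 1 rose, the transcription factor Wt1 (1.11 ± 0.13, limma adjusted p = 0.000306), and all 6 were higher at an unadjusted p below 0.05, with a median log2 fold change of 1.53. Their summed level was 2.54 to 57.1 FPKM in trained and 2.70 to 3.77 FPKM in sedentary wild-type hearts. Of 5 erythroid markers none passed by limma, 4 were higher at an unadjusted p below 0.05, the median was 1.33, and the sum was 974.9 to 1895 FPKM in trained and 213 to 1350.1 FPKM in sedentary wild-type hearts. The smooth muscle gene Acta2 (0.86 ± 0.24, 1 of 4 in its list) and the endothelial gene Pecam1 (0.37 ± 0.09, 1 of 7) also rose. Neither list had a call with a common FPKM sum. The endothelial list had a median log2 fold change of 0.09, with 1 gene higher and 1 lower at an unadjusted limma p below 0.05. Its sum was 244 to 337 FPKM in trained and 236 to 288 FPKM in sedentary wild-type hearts. In labelled knockout mice Wt1 rose as well (0.77 ± 0.13), the medians of the epicardial and erythroid lists were 0.89 and 1.08, and the smooth muscle gene Cnn1 rose (2.32 ± 0.63). The part of these cell types in the chaperone values was not tested.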

How the data were processed

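The authors deposited FPKM per gene for 25851 genes and 20 libraries. The tools listed, per the submitters' processing notes, are DESeq2 1.20.0, HISAT2 2.0.5 and featureCounts 1.5.0-p3, with the build mm10 and no role given. FPKM times GENCODE M21 exon length gave whole reads, within 0.01 read, in every library for 96.6% of genes. The implied library sizes followed median-ratio factors (ratio 0.997 to 1.00), so values were used as deposited. No replicate pair was identical.

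Genes with a mean of at least 0.5 FPKM were fitted as log2(FPKM + 0.5) with limma 3.58.1 in R 4.3.3 (4 groups in 1 fit, 16 residual degrees of freedom, eBayes with a trend, two-sided, Benjamini-Hochberg over 13723 genes, threshold 0.05) and tested on simulated data. Fold changes on this scale understate those of low genes. Lists were described by counts and medians. The members, lists, tests and alternatives were chosen with earlier results of these data known. The fits without high-Myl7 or high-Arntl libraries, and with either as a covariate, were added after seeing the data. All 10 members are named, up to 4 called genes of each other list per comparison, lowest p first, and the 5 genes most like 3 members. Ppargc1a, Myl7 and Arntl are library checks. Replicates are separate mice per the design. Replicate numbers were not treated as pairs in the main fit. Same-numbered libraries correlated between -0.28 and 0.48, above 0.1 in 8 of 20 pairs. For replicate 1 the values were 0.29 to 0.36 in the 4 comparisons. Whether same-numbered libraries shared handling was not tested. Promoters came from RefSeq GRCm38.p6. Protein sequences were not analysed here. Counts and intervals reflect depth and the spread between mice only.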

Additional observations from a re-analysis of the deposited data

Results flagged for a closer look

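Among 44 groups of 5 libraries that were checked, in 2 the highest or lowest library lay far from the other 4, which chance gives in about 1 of 20 groups. Hspa8 in trained labelled knockout hearts was lowest in replicate 3 at 330.6 FPKM, with the next library at 353 FPKM. Bag3 in sedentary wild-type hearts was highest in replicate 4 at 153.1 FPKM, with the next library at 115 FPKM. That library was the highest of its group for 9 of the 10 chaperone genes.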

How the results depend on the processing

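Of 1380 refitted fold changes of the 10 genes, 1265 kept their direction and their side of the threshold, 50 lost a call, 45 gained one and 20 changed sign. Members called for training in wild-type mice were 8 in the fit reported (all genes 403 higher, 347 lower), 2 with only those groups fitted (52, 9), 1 without the high-Myl7 libraries (33, 6), 0 without the high-Arntl libraries (1, 3) and 5 with log2 Arntl as a covariate (44, 29). For training in labelled knockout mice they were 3 (1656, 2236), and 6 with a common FPKM sum (TPM; 4085, 631), 6 with only those groups fitted (1812, 2498) and 5 with array weights (2790, 3490). For genotype in sedentary mice they were 1 (955, 867), and 2 with only those groups fitted (850, 795), 4 with array weights (2630, 2706), 0 without the high-Arntl libraries (10, 9) and 0 with log2 Arntl as a covariate (272, 322). For genotype in trained mice they were 1 (1713, 2112), and 0 without a filter (2115, 1990), with a common sum (5149, 787) or without the high-Myl7 libraries (1608, 1939), and 5 with array weights (2278, 2639). For the interaction they were 0 (319, 686), 9 with array weights (2380, 2661) and 1 with the replicate block (455, 850; Hspb1, adjusted p = 0.0385). The replicate block otherwise added Bag3 for training in wild-type mice (adjusted p = 0.0356; all genes 804, 860) and Dnajb1 for training in labelled knockout mice (adjusted p = 0.0413) and removed no call. With each library left out the counts were 1 to 3 for genotype in sedentary mice (3 without wild-type replicate 4), 6 to 9 for training in wild-type mice, 3 to 4 for training in labelled knockout mice, 0 to 3 for genotype in trained mice (0 in 6 of 10 such fits, 3 without wild-type replicate 2) and 0 to 3 for the interaction. The cause of these changes was not tested.

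Signs changed for fold changes near 0. With a common sum they were 0.039 for Bag3 (genotype, sedentary), 0.20 for Hsp90ab1 (training, labelled knockout), 0.076 for Hspa8, 0.23 for Hsp90ab1 and 0.24 for Hspb1 (genotype, trained) and 0.042 for Hsp90aa1 (interaction). With array weights they were 0.068 for Bag3 (genotype, sedentary), -0.011 for Hspa8 (training, labelled knockout) and -0.086 for Hsp90aa1 (genotype, trained). Without the high-Myl7 libraries they were -0.0025 for Hspa8 (training, labelled knockout), 0.12 for Hspb1 (genotype, trained) and 0.15 for Hsp90aa1 (interaction). With each library left out they ranged from -0.11 to 0.045 for Bag3 (genotype, sedentary), -0.014 to 0.037 for Hspa8 (training, labelled knockout), and, for genotype in trained mice, -0.18 to 0.18 for Hsp90aa1, -0.15 to 0.010 for Hsp90ab1 and -0.16 to 0.038 for Hspb1. The summed Hspa1a and Hspa1b level for genotype in sedentary mice passed with a common sum (0.98, adjusted p = 0.0423) and was 0.75 to 1.14 with each library left out. Depth limits Hspa1a and Hspa1b in sedentary hearts, where some libraries held under 40 reads of each.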

Other observations

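Some immediate early genes, which are induced within minutes of a stimulus, rose with training. Of 19 tested, 11 rose in labelled knockout mice, where 12.1% of all genes rose, and 7 in wild-type mice, where 2.94% did, with median log2 fold changes of 1.202 and 0.63 and none lower. They were led in labelled knockout mice by Fosl2 (1.28 ± 0.14, limma adjusted p = 7.54e-06), Junb (1.42 ± 0.19), Egr2 (1.32 ± 0.21) and Nr4a2 (1.26 ± 0.21), and in wild-type mice by Nr4a3 (2.14 ± 0.35, limma adjusted p = 0.00395), Atf3 (2.15 ± 0.36), Nr4a1 (2.35 ± 0.45) and Fosl2 (0.72 ± 0.14). The difference between genotypes passed for none of the 19 (by limma, unadjusted p below 0.05 for 3, all higher). With a common FPKM sum 15 of 20 rose in labelled knockout mice, where 4085 of 13774 genes rose, and 6 in wild-type mice, where 186 did. The difference passed for 1 of 20, where 351 genes were higher and 58 lower. Without the high-Myl7 libraries 10 rose in labelled knockout mice, where 1750 of 13723 genes rose, and 3 in wild-type mice, where 33 did. Without the high-Arntl libraries 10 rose in labelled knockout mice, where 1916 of 13723 genes rose. That fit left 1 sedentary wild-type library, so no count is given for wild-type mice.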
